A study of Mus musculus with 19 samples.

Results

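The comparison described here is between cortices that lacked both *Ino80* and *Trp53* and control cortices. The double mutants (dKO-E) carried Cre at the *Emx1* locus (*Emx1*Cre/+) and were homozygous for loxP-flanked alleles of both genes (*Ino80*fl/fl with *Trp53*fl/fl), and 7 such embryos were compared with 7 embryos labelled as control (ctrl). These are 14 of the 19 RNA-seq libraries of the series, and the remaining 5 came from the single mutant *Emx1*Cre/+;*Ino80*fl/fl (cKO-E). All were of a mixed C57BL/6 and 129 background, neocortex was dissected at E13.5, and each library came from 1 embryo. Which of the alleles the ctrl embryos carried was not given in the sources used here. *Emx1*-driven Cre acts in the progenitors of the dorsal telencephalon and in their neurons and glia, so interneurons that migrate in from the ventral forebrain, vessels and microglia in the tissue keep both genes. The question is what changes without *Ino80* when the p53 response is absent too, and because no *Trp53* single mutant was sequenced, the losses of the 2 genes cannot be told apart in dKO-E against ctrl.

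INO80 is the ATPase of a large chromatin remodeller that slides and edits nucleosomes next to transcription start sites, at replication forks and at DNA breaks. Its core is built on the INO80 chain with actin-related proteins and the RUVBL1 and RUVBL2 helicases, and in mammals the sequence-specific factor YY1 binds to it. p53, encoded by *Trp53*, is the transcription factor that turns DNA damage into cell-cycle arrest or apoptosis. At E13.5 the cortex holds dividing apical and intermediate progenitors and the first projection neurons.

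Total counts on genes ranged from 885159 to 8095810 in the dKO-E libraries (median 2598028) and from 1539303 to 5205035 in the ctrl libraries (median 3152460). Expression is given as CPM, the normalised read count per 1e6 reads after TMM scaling, and a count of 3, used as the limit of detection in each library, equalled 0.371 to 3.39 CPM. The dKO-E embryos were 2 females and 5 males from litters 1 and 2, and the ctrl embryos were 4 females and 3 males from litters 1, 4, 5 and 7. Litter 1 was the one litter with both genotypes, with 3 dKO-E and 2 ctrl embryos. Sequencing batch 1 held 4 dKO-E and 4 ctrl embryos and batch 2 held 2 and 3, while batch 3 held dKO-E embryo E and no ctrl embryo. Reads outside annotated genes made up 13.6% and 15.1% of the uniquely aligned reads in ctrl embryos H and I and 6.00% to 9.61% in the other libraries. Reads on sex-linked genes matched the labelled sex of every embryo.

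The targeted genes were looked at first. Expression of *Ino80* (ENSMUSG00000034154, chr2:119373042-119477687 on GRCm38) lay between 111 and 129 CPM in the ctrl embryos (median 121) and between 155 and 197 CPM in the dKO-E embryos (median 192). The dKO-E values were thus all above the ctrl values, by 0.62 on the log2 scale (SE 0.06), with an adjusted p of 8.84e-07 in the quasi-likelihood test of edgeR. An exact permutation test of the mean log2 CPM gave p = 0.000583 (two-sided), the smallest that 7 against 7 embryos can give. The floxed *Ino80* allele loses exons 2 to 4, and a count over the whole gene does not show whether those exons were present, so it is no check of the deletion. For *Trp53* the exons lost were not given in the sources used here, so how far its count reports on the deletion was not determined.

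*Trp53* (chr11:69580359-69591873) had 43.8 ± 5.60 CPM in ctrl and 34.5 ± 4.78 in dKO-E (SD, n = 7 each), a log2 difference of -0.36 (SE 0.10, adjusted p = 0.0196), which did not pass the threshold of 0.001 used for calls. The lowest dKO-E value was 27.4 CPM and the groups overlapped, with 4 of the 7 dKO-E embryos below every ctrl embryo. The exact permutation test of its mean log2 CPM gave p = 0.00758 (two-sided). *Emx1*, whose locus carries Cre, had 109 ± 10.1 CPM in ctrl and 115 ± 17.9 in dKO-E, a log2 difference of 0.10 (adjusted p = 0.508).

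Over all genes, 11381 had enough counts to be tested, and at an FDR of 0.001 266 genes were downregulated (2.34% of those tested) and 28 were upregulated (0.246%). Most changes were of modest size. The median log2 fold change of the downregulated genes was -0.53 and that of the upregulated genes 0.52, 17 of the downregulated genes and 1 of the upregulated genes changed by at least 2-fold, and 122 and 13 changed by less than 0.5 on the log2 scale. Every dKO-E embryo lay below every ctrl embryo for 228 of the 266 downregulated genes and above for 26 of the 28 upregulated genes, which were chosen by that difference. Among all tested genes, such separation was seen below for 3.08% and above for 1.15%. At an FDR of 0.05, 1139 genes were lower (10%) and 620 were higher (5.45%). The excess of downregulated genes depended on the scaling, because with total counts in place of TMM factors 118 genes were downregulated and 80 upregulated, with the median of all genes moved by 0.09. Of the 266 downregulated genes 118 were also called with that scaling, and of the 28 upregulated genes 28 were. Single embryos mattered for the counts as well, with 15 upregulated genes without ctrl embryo A, and 18 upregulated and 172 downregulated genes without dKO-E embryo F.

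Litter and genotype were nearly nested. In litter 1 alone, with 3 dKO-E and 2 ctrl embryos of 1 sequencing batch, no gene passed an FDR of 0.001 in edgeR's quasi-likelihood test, 67 genes passed 0.05 and 2112 of 12650 had an unadjusted p under 0.05. A fit without litter 1 (4 dKO-E and 5 ctrl embryos, none of them in litter 1) called 126 downregulated and 13 upregulated genes. Of those, 121 of 126 downregulated genes were also lower in dKO-E within litter 1, where 48.2% of all genes were lower, and 95 of them had an unadjusted p under 0.05. Their median log2 fold change was -0.67 outside litter 1 and -0.50 within it. All 13 upregulated genes were also higher within litter 1, with medians of 0.78 and 0.49. With litter as a covariate, 36 genes were downregulated, among them *Unc13b*, *Tet2*, *Rims2*, *Pkd2*, *Prkdc*, *Ncor1*, *Uba3*, *Rora* and *Serbp1*, and *Ino80* alone was upregulated. The other litters held only dKO-E or only ctrl embryos. The genotype difference in that fit thus came from the 3 dKO-E and 2 ctrl embryos of litter 1, and the others added to the estimate of spread. For *Ino80* it was 0.74, as in litter 1 alone, so the fit is no separate check. Within sequencing batch 1 alone the counts were 83 and 4, and within batch 2 alone 12 and 2.

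**Figure D1:**
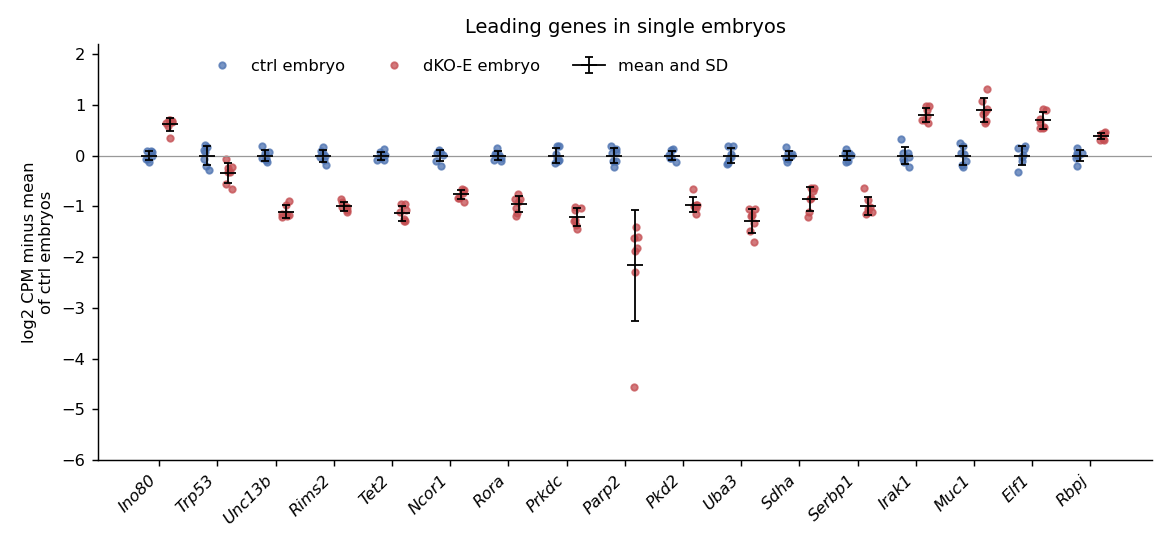
Values of 17 genes in single embryos. The y axis gives log2 CPM minus the mean of the 7 ctrl embryos, blue points are ctrl and red points dKO-E embryos, and black marks are means with SD. For every gene shown except *Trp53* the dKO-E points lie on one side of all ctrl points, and the lowest point of *Parp2* is the library with 1 count.

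The INO80 complex itself was described by 15 tested genes, its subunits and *Yy1*. *Ino80* was the one member called by edgeR's quasi-likelihood test and by its likelihood-ratio test, while DESeq2 also called *Ino80d* higher, no member was downregulated by any of these, and 14 of 15 lay above 0 on the log2 scale, where the median was 0.20 beside 0.01 for all genes tested. At an FDR of 0.05, *Ino80d* (0.21, adjusted p = 0.00526), *Ino80e* (0.35, adjusted p = 0.0196) and *Uchl5* (0.32, adjusted p = 0.0452), the deubiquitinase bound to the complex, were higher too. *Yy1* had 131 ± 4.58 CPM in ctrl and 135 ± 6.44 in dKO-E, a log2 difference of 0.04 (adjusted p = 0.622). *Ino80dos*, a transcript annotated on the strand opposite to *Ino80d* and named here after its value was seen, was downregulated (-0.79, adjusted p = 8.39e-06). Whether counting used the strand was not given in the sources used here, so reads of such a pair may not be told apart where they overlap.

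Several of the leading downregulated genes act at the presynaptic terminal, where vesicles are docked and primed for release. Of 46 tested genes of the active zone and vesicle release, 4 were downregulated (8.70%, against 2.34% of all genes) and none upregulated. At an FDR of 0.05, 15 were lower and 1 higher, and the median log2 fold change was -0.19. With total-count scaling list medians shifted upward together, by about as much as the median of all genes, and this one was -0.09. *Unc13b*, the vesicle priming factor MUNC13-2, lay between 201 and 252 CPM in the ctrl embryos (median 215) and between 95.1 and 119 CPM in the dKO-E embryos (median 98.9). Its groups were far apart, with a log2 difference of -1.12 (SE 0.06, adjusted p = 7.60e-10). *Rims2*, an active zone scaffold that binds MUNC13, lay between 399 and 515 CPM in the ctrl embryos (median 455) and between 211 and 252 CPM in the dKO-E embryos (median 225), again without overlap (-1.01, SE 0.06, adjusted p = 2.21e-09). *Sv2b*, a vesicle membrane glycoprotein, and *Syn3*, a synapsin that tethers vesicles, changed less, by -0.61 (adjusted p = 0.000171) and -0.37 (adjusted p = 0.000537). *Gphn*, the gephyrin scaffold of inhibitory postsynapses, had a log2 difference of -0.67 (adjusted p = 9.26e-07), and *Cadps*, which primes dense-core vesicles, of -0.55 (adjusted p = 0.000189). Both were named after their values were seen.

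Of 23 tested genes of projection neuron identity, 5 were downregulated (21.7%, against 2.34% of all genes) and none was upregulated. At an FDR of 0.05, 11 were lower (47.8%, against 10% of all genes) and none was higher (against 5.45%). The list's median was -0.28 (-0.19 with total counts), the lowest of the 49 lists with either scaling. The downregulated members were the transcription factors *Zfpm2* (-0.43, SE 0.07, adjusted p = 0.000223), *Cux1* (-0.36, adjusted p = 0.000337), *Nfia* (-0.28, adjusted p = 0.000434), *Nfib* (-0.30, adjusted p = 0.000514) and *Mef2c* (-0.64, adjusted p = 0.000551). *Nfia* and *Nfib*, nuclear factor I genes that also act in progenitors, were among the most highly expressed, with 4482 ± 270.2 CPM in ctrl and 3702 ± 227 in dKO-E for *Nfia*. The layer markers of early neurons did not pass the threshold, with log2 differences of -0.29 for *Tbr1* (adjusted p = 0.123), -0.42 for *Bcl11b* (adjusted p = 0.037) and -0.11 for *Fezf2* (adjusted p = 0.627).

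Of 29 tested pan-neuronal genes, *Map2*, the dendritic microtubule-associated protein, was the one downregulated (-0.38, adjusted p = 0.000696), or 3.45% against 2.34% of all genes. At an FDR of 0.05, 8 were lower (27.6%, against 10% of all genes) and none was higher (against 5.45%). Of the 29, 27 had a log2 fold change below 0, and the median was -0.24. Summed over the list, expression was 9726 to 15507 CPM in ctrl and 8738 to 11977 CPM in dKO-E, and over the projection neuron list 17371 to 21386 CPM in ctrl and 14562 to 17708 CPM in dKO-E. These sums overlapped between the groups. In bulk tissue, fewer neurons and less RNA per neuron cannot be told apart. Litter was nearly nested in genotype, and its part in these sums was not tested.

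Every called gene on the lists of receptors, channels and guidance molecules was downregulated, as were 90.5% of all called genes. Downregulated genes made up 3.45%, 5.13% and 3.51% of these lists, against 2.34% of all genes tested. *Grik2*, a kainate-type glutamate receptor subunit, was the called gene of 29 glutamate and GABA receptor genes (-0.35, adjusted p = 0.000434), of which 9 were lower at an FDR of 0.05, with a median of -0.23. The calcium channel subunits *Cacnb2* (-0.70, adjusted p = 2.35e-05) and *Cacna2d1* (-0.45, adjusted p = 0.000694) were the called genes of 39 voltage-gated channel genes (median -0.18). Among 57 axon guidance genes, *Nrp1*, a receptor for class 3 semaphorins (-0.61, adjusted p = 4.39e-05), and *Ntn4*, a netrin (-0.48, adjusted p = 0.000434), were downregulated, 16 were lower and none was higher at an FDR of 0.05, and the median was -0.15.

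Of 53 regulators of small GTPases, *Dock1* (-0.49), *Srgap3* (-0.36), *Pak3* (-0.38), *Spred2* (-0.48) and *Srgap2* (-0.26) were downregulated, none was upregulated and 44 had a log2 fold change below 0 (median -0.12). Of 52 genes of calcium, cAMP and lipid signalling, *Pde10a*, a cyclic nucleotide phosphodiesterase (-0.87, adjusted p = 7.13e-06), and *Plcb1*, a phospholipase (-0.40, adjusted p = 0.00096), were among those downregulated, and 16 were lower at an FDR of 0.05 (median -0.17). Other leading individual changes followed. *Ppp1r12b*, a myosin phosphatase subunit, went from 185 ± 13.9 to 102 ± 8.83 CPM (-0.87, adjusted p = 1.59e-08), and *Tmod2*, which caps actin filaments in neurons, from 121 ± 9.03 to 65.8 ± 6.08 CPM (-0.90, adjusted p = 1.59e-08). *Zdhhc17*, a palmitoyltransferase, and *Araf*, a kinase upstream of MEK, had log2 differences of -0.83 (adjusted p = 2.93e-08) and -0.85 (adjusted p = 4.34e-08).

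Genes of chromatin and transcription were among the leading changes. *Tet2*, a dioxygenase that oxidizes 5-methylcytosine, lay between 185 and 215 CPM in the ctrl embryos (median 195) and between 80.1 and 101 CPM in the dKO-E embryos (median 90.8). There was no overlap, and the log2 difference was -1.13 (SE 0.06, adjusted p = 7.60e-10). It was the one called gene of 21 tested enzymes and readers of DNA methylation (median 0.02). At an FDR of 0.05, 3 of these were lower (14.3%, against 10% of all genes) and 1 higher (4.76%, against 5.45%). Besides *Tet2* these were *Tet1*, a dioxygenase of the same family (-0.33, adjusted p = 0.0157), *Cxxc5*, a CXXC zinc finger gene (-0.51, adjusted p = 0.00118), and, on the higher side, the de novo methyltransferase *Dnmt3b* (0.43, adjusted p = 0.0104). *Ncor1*, a corepressor that joins nuclear receptors to histone deacetylase, went from 540.1 ± 41 to 318 ± 20.4 CPM (-0.77, SE 0.05, adjusted p = 1.11e-08). *Rora*, an orphan nuclear receptor, went from 384 ± 23.8 to 198 ± 21.5 CPM (-0.96, adjusted p = 1.72e-08). With the coactivators *Ncoa1* (-0.52, adjusted p = 1.49e-05) and *Ncoa2* (-0.38, adjusted p = 7.29e-05), 4 of 32 tested nuclear receptors and cofactors were downregulated (12.5%) and none upregulated, and the list's median was -0.03 (0.07 with total counts).

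Among 56 remodellers outside INO80, *Bptf* of the NURF complex (-0.33, adjusted p = 0.000189), *Rsf1*, which partners the ISWI ATPase (-0.32, adjusted p = 0.000403), and *Atrx* (-0.27, adjusted p = 0.000782) were downregulated. Of 53 genes of histone methylation and Polycomb, the demethylases *Kdm7a* (-0.43, adjusted p = 0.000675) and *Kdm5c* (-0.65, adjusted p = 0.000706) were. *Kdm5c* is X-linked and escapes X inactivation, and with sex as a covariate its log2 difference was -0.53 (adjusted p = 6.90e-05). The dKO-E and ctrl groups differed in their sex ratio, and all 12 downregulated X-linked genes and the upregulated one were also called with sex as a covariate. *Sfmbt2*, a Polycomb-related repressor, had one of the largest differences at low counts. It went from 11.8 ± 2.64 to 3.41 ± 0.995 CPM, with 3 to 41 counts in a dKO-E library and 22 to 45 in a ctrl library (-1.64, SE 0.21, adjusted p = 3.52e-05).

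Genes of the DNA damage response were described by 4 lists. *Parp2*, a poly(ADP-ribose) polymerase that responds to strand breaks, had the largest fold change of all called genes. Its expression lay between 21.3 and 28.5 CPM in the ctrl embryos (median 25.6) and between 1.05 and 9.40 CPM in the dKO-E embryos (median 7.07), from 1 to 65 counts in the dKO-E libraries, a log2 difference of -1.79 (SE 0.16, adjusted p = 2.72e-07). *Prkdc*, the catalytic subunit of DNA-PK that acts in non-homologous end joining (NHEJ), lay between 111 and 141 CPM in the ctrl embryos (median 119.9) and between 45.4 and 61.6 CPM in the dKO-E embryos (median 51.2). All 7 dKO-E embryos were below all ctrl embryos, with a log2 difference of -1.21 (SE 0.08, adjusted p = 1.07e-08). It was the one called gene of 15 NHEJ genes, whose median was 0.10.

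Of 43 tested genes of homologous recombination (HR), 1 was downregulated and 1 upregulated, with a median of 0.05. At an FDR of 0.05, 4 were higher (9.30%, against 5.45% of all genes) and 3 lower (6.98%, against 10%). *Brcc3*, named after its value was seen, was lower at that threshold and was called by the likelihood-ratio test and DESeq2. It and both called genes belong to the BRCA1-A complex. *Abraxas1*, its scaffold, went from 19 ± 2.68 to 9.68 ± 1.65 CPM (-1.05, SE 0.12, adjusted p = 1.20e-05), and *Babam2*, its BRE subunit, from 117 ± 2.96 to 148 ± 9.17 CPM (0.33, SE 0.05, adjusted p = 0.000149). *Tipin*, which protects stalled forks, was the second called gene of 20 damage sensors besides *Parp2* (-0.49, adjusted p = 0.000633), and no gene of the 16 of the Fanconi anemia pathway was called. Over both directions 2.58% of all genes were called. *Pola1*, the catalytic subunit of DNA polymerase alpha (-0.55, adjusted p = 7.26e-05), and *Mcm2* of the replicative helicase (-0.71, adjusted p = 0.000537) were the called genes of 39 replication genes (median 0.07). The origin recognition gene *Orc3* (-0.71, adjusted p = 0.000177), named after its value was seen, was downregulated as well. None of 43 genes of G2 and mitosis and none of 28 G1 cyclins, kinases and inhibitors was called, and their medians were 0.07 and 0.01.

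Of 67 tested genes of the primary cilium, 4 were downregulated (5.97%, against 2.34% of all genes) and 1 upregulated, with a median of 0.03. At an FDR of 0.05, 7 were lower (10.4%, close to the 10% of all genes) and 6 higher (8.96%, against 5.45%). *Pkd2*, the ciliary cation channel polycystin-2, lay between 98.9 and 118 CPM in the ctrl embryos (median 106) and between 49 and 68.5 CPM in the dKO-E embryos (median 54.3), and every dKO-E embryo was below every ctrl embryo (-1, SE 0.07, adjusted p = 9.05e-09). *Cc2d2a* of the transition zone (-0.95, adjusted p = 3.82e-05), *Bbs4* of the BBSome (-1.16, adjusted p = 0.000128) and the basal body gene *Alms1* (-0.40, adjusted p = 0.000894) were lower, and *Cspp1*, a centrosomal and ciliary microtubule protein, was higher (0.36, adjusted p = 5.84e-05). Of 37 tested genes of polarity and junctions, 8 were lower (21.6%, against 10% of all genes) and 2 higher (5.41%, against 5.45%) at an FDR of 0.05. The apical determinant *Crb1* (-1.07, SE 0.15, adjusted p = 5.68e-05) and *Dlg5* (-0.35, adjusted p = 0.000936) were downregulated, the basolateral scaffold *Scrib* (0.43, adjusted p = 0.00075) and the cadherin *Cdh24* (0.53, adjusted p = 0.000537) were upregulated, and the median of the list was -0.09, or at 0 to 2 decimals with total counts. *Wdfy3*, an autophagy adaptor, was the called gene of 37 genes of microcephaly and the centrosome (-0.31, adjusted p = 0.000221). At an FDR of 0.05 6 of these were higher (16.2%, against 5.45% of all genes) and 1 was lower, 27 lay above 0 and the median was 0.10.

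*Uba3* encodes the catalytic subunit of the enzyme that activates NEDD8, the modifier that switches cullin ligases on. It lay between 78.6 and 99.5 CPM in the ctrl embryos (median 86.1) and between 26.8 and 42.2 CPM in the dKO-E embryos (median 38.1), without overlap (-1.25, SE 0.09, adjusted p = 1.59e-08), and was the one called gene of 31 genes of neddylation and cullin ligases (median 0.00161). Lower at an FDR of 0.05 were also *Nae1*, which encodes the partner subunit of UBA3 in the same enzyme (-0.39, adjusted p = 0.00124), *Cul5*, a cullin (-0.30, adjusted p = 0.00455), and *Cops6*, a subunit of the COP9 signalosome (-0.50, adjusted p = 0.00198), and *Gps1*, another subunit of it, was higher (0.35, adjusted p = 0.021). The likelihood-ratio test and DESeq2 called *Nae1*, *Cul5* and *Cops6* as well. With *Uba3*, 4 of the 31 genes were lower at an FDR of 0.05 (12.9%, against 10% of all genes), and 1 was higher (3.23%, against 5.45%). *Sdha*, the catalytic subunit of succinate dehydrogenase, went from 73.4 ± 4.89 to 40.9 ± 6.17 CPM (-0.85, SE 0.08, adjusted p = 8.84e-07) and was the one called of 51 nuclear genes of the respiratory chain (median 0.00431), with 4 lower and 1 higher at an FDR of 0.05. *Suclg2*, the succinyl-CoA ligase subunit of the preceding step, went from 76.2 ± 11.7 to 37.1 ± 5.06 CPM (-1.05, adjusted p = 1.95e-06). *Psmd5*, an assembly chaperone of the proteasome base, went from 44.2 ± 5.84 to 22.6 ± 3.19 CPM (-0.98, adjusted p = 3.22e-06), beside a median of 0.08 over 43 proteasome genes. *Usp24*, a deubiquitinase, had a log2 difference of -0.62 (adjusted p = 9.08e-07).

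*Serbp1*, an mRNA-binding protein that sits on idle ribosomes, had 271 ± 17 CPM in ctrl and 137 ± 18.2 in dKO-E (-0.98, SE 0.07, adjusted p = 1.07e-08), and *Leng8*, linked to mRNA export, had 108 ± 17.1 CPM in ctrl and 158 ± 14.7 in dKO-E (0.53, adjusted p = 0.000313), the 2 called genes of 49 in mRNA decay and export. Of the 49, 10 were lower at an FDR of 0.05 (20.4%, against 10% of all genes) and 4 higher (8.16%, against 5.45%). *Sf3b3* (-0.46, adjusted p = 5.84e-05) and *Sf3b2* (-0.40, adjusted p = 0.000603), subunits of the U2 snRNP, were the called genes of 59 spliceosome genes (median 0.06), and the spliceosomal helicase *Ddx23*, which was on no list, was downregulated by a larger margin (-1.01, adjusted p = 1.09e-06). Of 70 cytosolic ribosomal protein genes, *Rpl17* was called (-0.65, adjusted p = 0.000148), 57 were below 0, 16 were lower at an FDR of 0.05 and the median was -0.22. These genes have many near-identical pseudogenes, so their counts are uncertain, and the median was -0.12 with total-count scaling. Among ribosome biogenesis genes *Pinx1*, a nucleolar telomerase inhibitor, was upregulated (0.36, adjusted p = 0.000556), 9 of 46 were higher and 1 lower at an FDR of 0.05, and the median was 0.13.

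Other downregulated genes with large fold changes act in diverse places. They included *Arhgap19*, a GTPase-activating protein (-1.31, adjusted p = 2.90e-07), *Cnnm2*, a magnesium transport protein (-1.20, adjusted p = 8.31e-05), *Alg8*, a glucosyltransferase of N-glycan synthesis (-1.09, adjusted p = 1.09e-06), *Spcs2* of the signal peptidase (-0.82, adjusted p = 1.19e-06) and *Fundc2*, a mitochondrial outer membrane protein (-1.06, adjusted p = 0.000617). *Fundc2* had 2 to 40 counts per dKO-E library. The transcription factor gene *Zhx2* went from 176 ± 22.3 to 103 ± 14.4 CPM (-0.77, adjusted p = 3.34e-06), *C530008M17Rik* from 688 ± 40.2 to 433 ± 20.8 CPM (-0.68, adjusted p = 2.44e-08), and *Rian*, a maternally expressed imprinted non-coding RNA, from 107 ± 13.1 to 62.8 ± 10.4 CPM (-0.76, adjusted p = 7.91e-06), beside -0.04 in cKO-E. *Ep300*, the histone acetyltransferase p300, fell by a smaller margin (-0.34, adjusted p = 0.000214). *Zhx2*, *Rian* and *Ep300* were named after their values were seen. Of the 266 downregulated genes, 256 were protein coding and 54 were on at least 1 of the 49 lists.

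**Figure D2:**
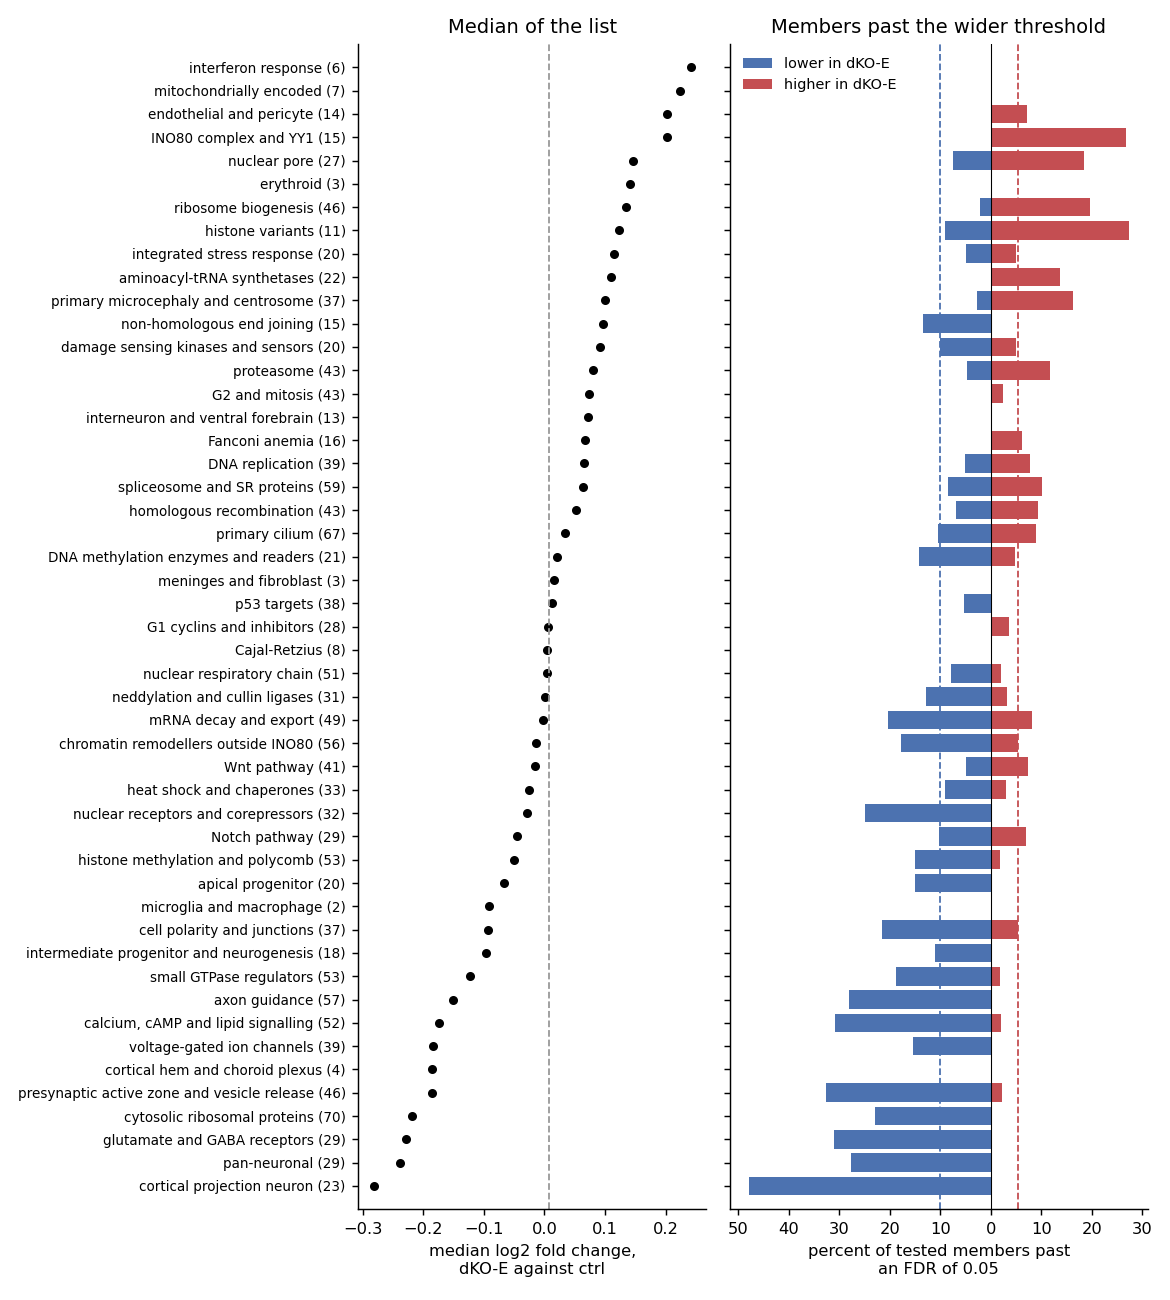
Members of the 49 gene lists. The left panel gives the median log2 fold change of each list's tested members (number in parentheses) and a dashed line for all genes tested, and the right panel gives the percent of members lower (blue) or higher (red) in dKO-E at an FDR of 0.05, with dashed lines for all genes tested. The projection neuron list has the lowest median, and 11 of its 23 members are lower.

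The 28 upregulated genes were fewer and were scattered over functions, with 9 of them on a list and at most 2 on any one. *Irak1*, a kinase of interleukin and Toll-like receptor signalling, had the smallest p value after *Ino80*. It lay between 17.4 and 25.4 CPM in the ctrl embryos (median 19.9) and between 31.6 and 40.1 CPM in the dKO-E embryos (median 34.7), a log2 difference of 0.80 (SE 0.10, adjusted p = 1.49e-05) without overlap. *Muc1*, an epithelial transmembrane mucin, lay between 14.5 and 20.2 CPM in the ctrl embryos (median 17.3) and between 26.4 and 41.9 CPM in the dKO-E embryos (median 30.6), with all dKO-E embryos above all ctrl embryos (0.88, SE 0.12, adjusted p = 4.83e-05). The ETS-family transcription factor *Elf1* went from 37.6 ± 4.47 to 60.8 ± 6.87 CPM (0.64, SE 0.09, adjusted p = 6.59e-05), and *Rbpj*, the DNA-binding effector of Notch, from 265 ± 19.8 to 345 ± 16.4 CPM (0.38, SE 0.05, adjusted p = 6.59e-05). *Rbpj* was the one called gene of 29 in the Notch pathway, whose median was -0.04, and *Scrib* the one of 41 in the Wnt pathway (median -0.02), and with total counts both medians were above 0 (0.05 and 0.08). The largest fold change was that of *Col11a2*, a fibrillar collagen chain, at 8 to 33 counts per ctrl library and 12 to 118 per dKO-E library (from 5.70 ± 1.77 to 13.7 ± 2.98 CPM, a log2 difference of 1.22, adjusted p = 0.000219).

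Other upregulated genes with low expression were *Il20rb*, a cytokine receptor chain (0.93, adjusted p = 0.000129), *Sypl2*, a synaptophysin-like membrane protein (0.92, adjusted p = 0.000282), and *Impg2*, a proteoglycan of the retinal matrix (0.91, adjusted p = 9.14e-05). *Dnajb4*, a co-chaperone, was the upregulated gene of 33 chaperone genes (0.81, adjusted p = 0.000251), while *Dnajc13*, a co-chaperone of endosomes, was downregulated (-0.29, adjusted p = 0.000459). The SUMO protease *Uspl1* (0.38, adjusted p = 0.000289), the mitochondrial *Vwa8* (0.37, adjusted p = 0.000322) and the antisense transcript *C920021L13Rik* (0.79, adjusted p = 0.000448) were called too. The mitochondrial *Ogdh* (0.33, adjusted p = 0.000286), a tricarboxylic acid cycle enzyme, the transport coat gene *Sec31a* (0.30, adjusted p = 0.000336) and the glycoprotein folding sensor *Uggt1* (0.27, adjusted p = 0.000834) rose by small amounts. The smallest change of the group was that of the kinase *Map2k5* (0.25, adjusted p = 0.000899). The pseudogene *Ppp4r1l-ps* (0.52, adjusted p = 2.54e-05) was also called, and its counts can be shared with the parent gene.

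On 19 of the 49 lists edgeR's quasi-likelihood test called no member. They held 298 tested genes, of which an unadjusted p under 0.05 was reached by 43 on the higher side (14.4%) and 28 on the lower (9.40%), against 13.1% and 16.5% of all genes. The likelihood-ratio test called 6 of them higher and 3 lower, and DESeq2 7 and 4. Of 38 tested p53 targets none was called by any of the 3 tests, an unadjusted p under 0.05 was reached by 3 on the higher (7.89%) and 6 on the lower side (15.8%), and the median was 0.01. The smallest p values were those of *Pank1*, a pantothenate kinase (-0.38, adjusted p = 0.0089), *Inka2* (-0.77, adjusted p = 0.0286) and the apoptotic nuclease *Aen* (-0.25, adjusted p = 0.0547). The quasi-likelihood test called none among 20 genes of the integrated stress response, 22 aminoacyl-tRNA synthetases, 6 interferon response genes, 27 nucleoporins, 11 histone variants and 7 mitochondrially encoded genes, with medians of 0.11, 0.11, 0.24, 0.15, 0.12 and 0.22. At an FDR of 0.05, 5 nucleoporins and 3 histone variant genes were higher, and 2 and 1 lower. Called by both the likelihood-ratio test and DESeq2, and named after their values were seen, were the nucleoporins *Nup133* (0.44), *Nup93* (0.36), *Nup155* (0.31) and *Nup88* (-0.43), the valyl-tRNA synthetase *Vars* (0.43), the Fanconi gene *Fancl* (0.45) and *H2afy2*, a macroH2A variant (-0.38), and DESeq2 called the nucleoporin *Nup214* (0.27).

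Markers of progenitors and of other cell types were among these 19 lists. The likelihood-ratio test and DESeq2 called *Prom1* lower (-0.40) and the pericyte gene *Notch3* higher, and DESeq2 called the neuronal *Elavl4* lower (-0.33). Of 20 apical progenitor genes 3 were lower at an FDR of 0.05 (median -0.07, or 0.03 with total counts), and the defining factor *Pax6* did not pass (-0.12, adjusted p = 0.478). *Sox2*, which lies inside the long non-coding gene *Sox2ot*, was listed at 0 in every library. Of 18 genes of intermediate progenitors and neurogenesis 2 were lower at an FDR of 0.05 (median -0.10), with -0.15 for *Eomes* (adjusted p = 0.255) and -0.10 for *Neurog2* (adjusted p = 0.518). Their summed expression was 3084 to 3398 CPM in ctrl and 2663 to 3607 CPM in dKO-E, and 1296 to 1682 CPM in ctrl and 1091 to 1532 CPM in dKO-E, respectively. Interneuron and ventral forebrain genes summed to 279 to 949 CPM in ctrl and 451 to 821 CPM in dKO-E, with -0.01 for *Gad2* (adjusted p = 0.989) and -0.03 for *Lhx6* (adjusted p = 0.968). The range of these sums was wide in both groups, and its part in the results was not tested.

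Endothelial and pericyte genes summed to 228 to 302 CPM in ctrl and 243 to 365 CPM in dKO-E, and 13 of 14 tested lay above 0 on the log2 scale, with *Notch3* of pericytes higher at an FDR of 0.05 (0.41, adjusted p = 0.00425) and the endothelial *Pecam1* at 0.42 (adjusted p = 0.104). The sums of the microglial list were 24.3 to 42.2 CPM in ctrl and 27.7 to 39.9 CPM in dKO-E, of the meningeal list 201 to 383 CPM in ctrl and 211 to 428 CPM in dKO-E, of the erythroid list 48.8 to 132 CPM in ctrl and 36.2 to 123 CPM in dKO-E, of the hem and choroid plexus list 88.9 to 124 CPM in ctrl and 77 to 161 CPM in dKO-E and of the Cajal-Retzius list 601 to 789 CPM in ctrl and 529.9 to 725 CPM in dKO-E. The groups overlapped in each of these.

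In a mixed background, sequence of another strain can stay linked to an engineered allele, so genes near the targeted loci were examined. Within 10 Mb of *Ino80*, 6 of 140 tested genes were called (4.29%, against 2.58% of all genes), *Ino80* included. *1700020I14Rik*, 0.117 Mb away (-0.50), *Ubr1* (-0.34), *Frmd5* (-0.42) and *Fbn1* (-0.76) were downregulated and *Zc3h6* was upregulated (0.87). Within 10 Mb of *Trp53*, 4 of 214 were called (1.87%), namely *Ncor1*, *Gosr1* (-0.51), *Abr* (-0.60) and *Cpd* (-0.44), each about 7 Mb from it. *Sat2*, which lies beside *Trp53* and was named after its value was seen, had a log2 difference of 1.65 (adjusted p = 0.00196) at 0 to 10 counts per ctrl and 6 to 45 per dKO-E library. In cKO-E, whose *Trp53* is not floxed, it had 3 to 10 counts per library. Within 10 Mb of *Emx1*, 2 of 105 were called (1.90%), *Mcm2* and *Alms1*. At an FDR of 0.05, 32 of the 140 genes near *Ino80* passed, *Ino80* included (22.9%, against 15.5% of all genes). The shares near *Trp53* and *Emx1* were 10.3% and 9.52%. The part of flanking sequence in these differences was not tested.

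Downregulated genes were long. The median span from first to last base was 112 kb for downregulated genes, 52.9 kb for upregulated genes and 29.4 kb for all genes tested, and the median exon length was 8.13, 6.42 and 4.90 kb. The share of downregulated genes was 0.233% of genes under 10 kb, 0.916% between 10 and 30 kb, 2.38% between 30 and 100 kb, 6.35% between 100 and 300 kb and 8.46% over 300 kb. Long genes also had more reads, with a median log2 CPM of 6.89 for downregulated and 5.12 for all tested genes, and more reads make a change easier to call. Among genes in the upper 50% of expression the share still went from 0.775% to 11.1%. The median log2 fold change, which needs no call, was 0.06 under 10 kb and -0.18 over 300 kb, and 0.15 and -0.09 with total-count scaling. Upregulated genes made up 0.0466% of the shortest and 0.376% of the longest class.

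**Figure D3:**
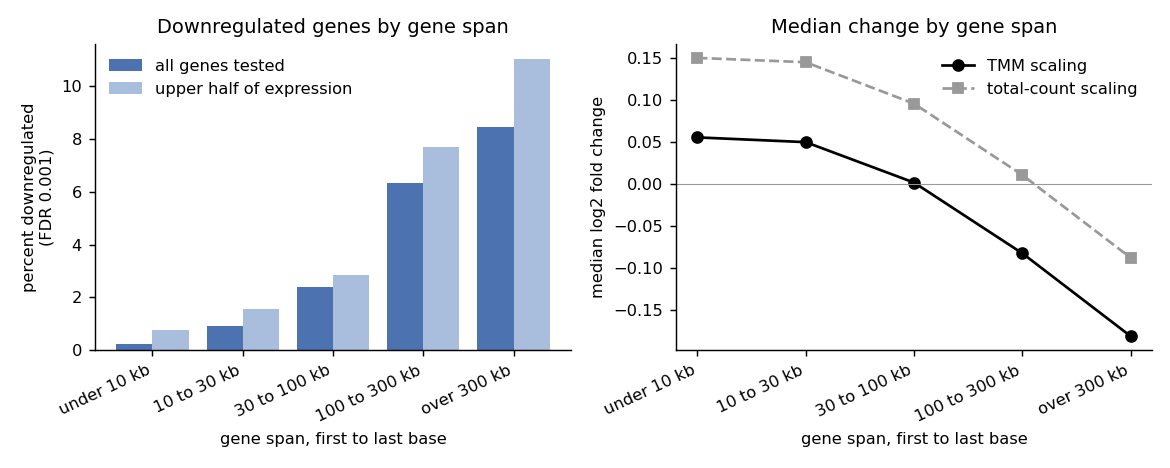
Change by gene span. The left panel gives the percent of tested genes downregulated at an FDR of 0.001 in 5 classes of gene span, for all genes and for the upper 50% of expression, and the right panel gives the median log2 fold change of each class with TMM and with total-count scaling. The share of downregulated genes is 0.233% in the shortest class and 8.46% in the longest.

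The promoters of the downregulated genes were then searched for 9 short motifs on both strands, in the RefSeq windows from 250 bases before to 50 bases after the start on GRCm38.p6. Promoters were matched by symbol for 212 of 266 downregulated, 21 of 28 upregulated and 8827 of 11381 tested genes. ATGGCGG, the core of the YY1 motif, was present in 42 of the 212 downregulated genes (19.8%), in 8.89% of tested genes and in 4.19% of all 27025 promoters. AAGATGG, the left part of the same motif, which shares the letters ATGG with it so that 1 stretch can hold both, was present in 13.7%, 7.51% and 6.48%. Among upregulated genes 5 of 21 held ATGGCGG (23.8%), so its higher share than in tested genes was not limited to downregulated genes. The ETS motif CCGGAAG was less frequent in downregulated (10.4%) than in tested genes (19.4%). The shares in downregulated and tested genes were 6.60% and 7.32% for the NRF1 motif GCATGCG, 7.08% and 6.26% for the CRE TGACGTC, 9.43% and 9.20% for the E2F motif TTCCCGC, 60.8% and 67.2% for the SP/KLF motif GGGCGG, 38.2% and 39.3% for the NFY motif CCAAT and 8.49% and 10.6% for the neurogenic E-box CAGATG. These shares are descriptions, and the difference between them was not tested.

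**Figure D4:**
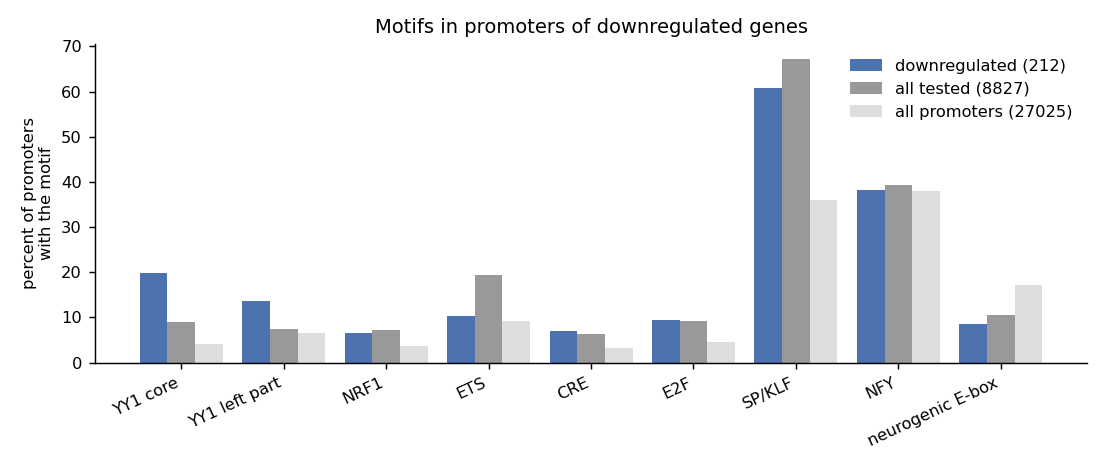
Motifs in promoters. Bars give the percent of promoters with each motif on either strand, for 212 downregulated genes, 8827 tested genes and all 27025 promoters. The YY1 core is at 19.8% in downregulated and 8.89% in tested genes, and the ETS motif at 10.4% and 19.4%. The 21 upregulated genes, with the YY1 core at 23.8%, are not shown.

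The position and strand of ATGGCGG were shared by most of its holders among the downregulated genes. Of 42 matches, 34 lay in the 50 bases after the start (81%, against 52.6% in all tested genes), and 36 read on the strand of the gene (85.7%, against 61.5%). A match after the start on their own strand was present in 32 downregulated genes (15.1%) and in 3.78% of tested genes. In 19 of these 32 genes the first 3 bases of the match were an annotated start codon, as they were for 66.8% of such tested genes. The windows of 29 bases around the motif are shown for 6 of these 32 genes, so that its place after the start can be seen. These are the 6 genes with the smallest p values whose window lies within the promoter record. Which of the 6 have the match at an annotated start codon is not given. Each window reads 5′ to 3′ on the strand of the gene, with ATGGCGG in capitals (RefSeq, GRCm38.p6).
Zfp292, chr4:34882902-34882930, strand -: gggctgcgaagATGGCGGacgatgaggcc
Usp24, chr4:106316223-106316251, strand +: agcaggccaacATGGCGGcgcgcagggct
Alg8, chr7:97371627-97371655, strand +: ggactccaggaATGGCGGcgtccgggtct
Lrch2, chrX:147554033-147554061, strand -: ctcccaggaacATGGCGGcgagtcaggga
Metap1d, chr2:71453348-71453376, strand +: ccggagccaacATGGCGGcgcccatcggc
Rpl7l1, chr17:46782615-46782643, strand -: gcaccggaaagATGGCGGaggaagggtga

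In these genes the motif began at base 30 after the start in *Zfp292*, a zinc finger gene (from 508 ± 28.9 to 320.0 ± 22 CPM, a log2 difference of -0.67, adjusted p = 6.64e-08), and at base 22 in *Usp24*, *Alg8* and *Metap1d*. *Lrch2* (-0.78), *Metap1d*, a mitochondrial methionine aminopeptidase (-0.74), and *Rpl7l1* (-0.89) were lower in dKO-E with adjusted p values of 1.46e-06, 4.11e-06 and 4.91e-06. *Psmd5*, *Bptf*, *Dock1*, *Gosr1*, *Dnajc13* and *Kdm5c* were among the other genes with such a match. *Unc13b*, *Tet2*, *Pkd2*, *Uba3*, *Sdha* and *Parp2* had no match on either strand, which says only that these letters are not in their windows.

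Genes that share a promoter region with a called gene were then compared with it. A second gene starts within 1000 bases upstream on the opposite strand for 29 of the downregulated genes (10.9%), 9 of the upregulated (32.1%) and 16.6% of all tested genes. Of the 18 such neighbours of downregulated genes that were tested, edgeR's quasi-likelihood test called none, where it called 2.58% of all genes. At an FDR of 0.05, 4 of the 18 were higher and 1 lower, against 5.45% and 10% of all genes. An unadjusted p under 0.05 was reached by 5 on the higher and 1 on the lower side, against 13.1% and 16.5% of all genes. The median log2 fold change of the 18 was 0.16. The likelihood-ratio test and DESeq2 each called *Zdhhc3* and *Rprd1b* higher and *Rpph1* lower. *Prkdc* and *Mcm4*, a subunit of the replicative helicase, start 466 bases apart, and *Mcm4* had 80.0 ± 12.3 CPM in ctrl and 87.5 ± 8.57 in dKO-E (0.14, adjusted p = 0.356) where *Prkdc* had -1.21. *Sdha* and *Ccdc127*, 29 bases apart, had -0.85 and 0.29 (adjusted p = 0.0209 for *Ccdc127*). *Exosc7*, a subunit of the RNA exosome, and *Zdhhc3*, 10 bases apart, had -0.73 and 0.33 (adjusted p = 0.000607 and 0.00305), and *Tti1* and *Rprd1b*, 64 bases apart, had -0.74 and 0.31 (adjusted p = 7.44e-05 and 0.00394).

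*Parp2* and *Rpph1*, the RNA of RNase P, start 74 bases apart and were both lower, with -1.79 and -0.68 (adjusted p = 0.00236 for *Rpph1*), the one pair with a downregulated gene in which both were lower at an FDR of 0.05. Of 7 tested neighbours of upregulated genes the quasi-likelihood test called none, and their median was -0.01. An unadjusted p under 0.05 was reached by 1 of the 7 on the higher and 1 on the lower side, against 13.1% and 16.5% of all genes. *Sypl2* and *Gm40123*, which start 139 bases apart, were both higher, with 0.92 and 1.00 (adjusted p = 0.00337 for *Gm40123*, which the likelihood-ratio test and DESeq2 called and which was named after its value was seen). *Dnajb4* and *Fubp1* had 0.81 and -0.01, and *Ccdc157* and *Sf3a1* had 0.72 and 0.13. Each difference between the members of a pair is a description, since the first member was chosen by its change.

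**Figure D5:**
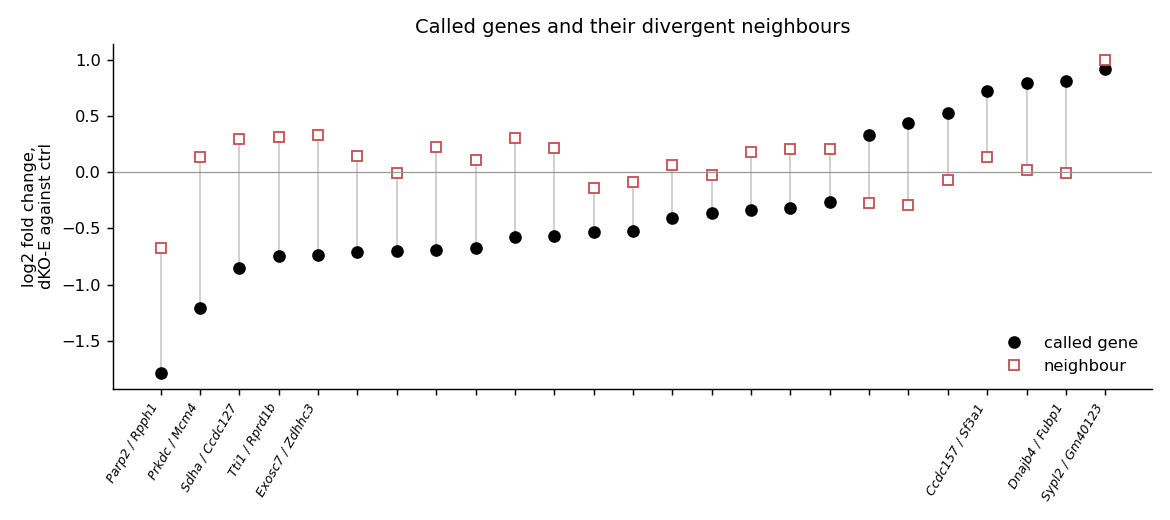
Called genes and the genes that start within 1000 bases of them on the other strand. The y axis gives the log2 fold change of dKO-E against ctrl, black circles are called genes and open squares their tested neighbours, joined by a line and labelled where the text names both. For 1 pair, *Parp2* and *Rpph1*, both members of a pair with a downregulated gene are past an FDR of 0.05 in the same direction.

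The same genes were read in cKO-E, the 5 embryos that lacked *Ino80* and kept *Trp53*. Both mutants were compared with the same ctrl embryos, so their values are given side by side. In cKO-E against ctrl 270 genes were downregulated (2.32%) and 124 upregulated (1.06%). The 266 genes downregulated in dKO-E had a median log2 fold change of -0.53 there and of -0.42 in cKO-E, and the 28 upregulated genes had 0.52 and 0.22. *Prkdc* had -1.21 and -1.01, *Pkd2* -1 and -1.03, *Rora* -0.96 and -0.99, and *Abraxas1* -1.05 and -1.02.

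dKO-E was compared with cKO-E directly, at an FDR of 0.05, with 5.59% of all tested genes higher and 9.42% lower in dKO-E. Of the 266 downregulated genes, 60 had lower values than in the cKO-E embryos, 8 had higher values and 198 did not pass. Of the 28 upregulated genes, 14 were higher in dKO-E and 14 did not pass. Since the genes were chosen with the same dKO-E embryos, an excess in that direction is built in, and no litter holds both mutants. *Unc13b* was among the 60, with a log2 difference of dKO-E from cKO-E of -0.49 (adjusted p = 0.000109), as was *Tmod2* with -0.62 (adjusted p = 5.38e-05). *Tet2* (-0.17, adjusted p = 0.175) and *Pkd2* (0.03, adjusted p = 0.905) did not pass.

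Several neuronal and matrix genes had log2 differences from ctrl of opposite sign in the mutants. For genes other than *Sv2b* only the direct difference between mutants is given with an adjusted p, so a change of cKO-E from ctrl is not shown for them. *Sv2b* had -0.61 in dKO-E and 0.58 in cKO-E (adjusted p = 0.00169), and the direct difference was -1.18 (adjusted p = 1.48e-06). *Syn3* had -0.37 and 0.31 (direct difference -0.67, adjusted p = 6.57e-06), and *Mef2c* had -0.64 and 0.45 (direct difference -1.08, adjusted p = 7.16e-06). *Zfpm2* (-0.64, adjusted p = 5.44e-06) and *Abr* (-0.93, adjusted p = 6.53e-07) were of the same kind, as were *Vcan*, the matrix proteoglycan versican (-0.89, adjusted p = 1.58e-06), and *Mbnl2*, a splicing regulator (-0.60, adjusted p = 4.58e-06), which were named after their values were seen.

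The 8 downregulated genes with higher values in dKO-E embryos, also named after their values were seen, were *Rhbdl3*, an intramembrane protease homologue (-0.48 in dKO-E and -1.14 in cKO-E, direct difference 0.67, adjusted p = 0.000237), *Peli2* (0.47, adjusted p = 0.0012), *Fhod3* (0.25, adjusted p = 0.00467), *Rgs20* (0.35, adjusted p = 0.015), *Cux1* (0.23, adjusted p = 0.0169), *Pak3* (0.28, adjusted p = 0.0191), *Rnf217* (0.25, adjusted p = 0.0248) and *Cacnb2* (0.27, adjusted p = 0.0438). Among upregulated genes, *Sypl2* (-0.15 in cKO-E, direct difference 1.08, adjusted p = 0.00029), *Muc1* (0.00236, direct difference 0.89, adjusted p = 0.00691) and *Irak1* (0.26, direct difference 0.55, adjusted p = 0.0064) exceeded their cKO-E values, while *Impg2* had 0.91 in dKO-E and 0.99 in cKO-E.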

How the data were processed

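Each embryo gave 1 Click-seq library from ribosomal RNA-depleted total RNA of the E13.5 neocortex. Per the labels and the study's methods, the authors trimmed adapters (cutadapt 1.13), aligned reads to GRCm38 (STAR 2.5.2a), removed duplicates by molecular identifier (UMI-tools 0.5.3) and counted reads per gene (htseq-count 0.6.1p1, intersection-nonempty mode). The deposited values are raw counts per gene without normalization, for 51912 genes, and summary rows that name no gene held 23.3% to 31.8% of all reads and were left out. GENCODE M21 gave symbols and positions and held 51719 of the gene identifiers. Samples were grouped by title.

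Counts were filtered with filterByExpr (minimum count 10), normalized by TMM factors and tested with edgeR's quasi-likelihood test (edgeR 4.0.16, R 4.3.3) over 7 dKO-E and 7 ctrl embryos without covariates. Tests were two-sided, and p values were adjusted (Benjamini-Hochberg) across every gene tested in a fit. A call against ctrl is an FDR of 0.001, and between mutants 0.05. The paper's likelihood-ratio test, DESeq2 1.42.0, other filters, scalings, covariates, subsets and each embryo left out were alternatives. CPM use TMM factors over 19 libraries, errors are SD (n = 7) and the limit of 3 counts covers counting error only. Scripts were tested on simulated data.

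Gene lists, the members and the rule for named genes were chosen with earlier results of these data known. The rule takes the targeted genes, *Yy1*, 15 genes per direction with the smallest p and 8 with the largest fold change, called list members (up to 3 others by p where a list had none), sex-linked called genes, called genes within 10 Mb of the targeted loci and leading cell type markers. Other genes were named after their values were seen, as were the divergent neighbours and the genes on no list. Some single genes covered by the rule are not reported here.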

Additional observations from a re-analysis of the deposited data

Results flagged for a closer look

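Of 166 genes, each looked at in both groups of 7, 17 of 332 groups held a value farther from the rest than Dixon's 95% limit for 7 samples, where chance alone gives about 1 in 20. *Ino80* was 155 CPM in dKO-E embryo E, the one embryo of sequencing batch 3, against 180.5 to 197 in the other dKO-E embryos. Among dKO-E embryos, *Pkd2* was 68.5 CPM in embryo G and *Mcm2* 96.5 in embryo B. dKO-E embryo C stood apart for *Cacna2d1* (1307 CPM), *Zhx2* (132), *Mef2c* (102) and *Il20rb* (17.7), and dKO-E embryo A for *Leng8* (187) and *Zfp292* (276). Among ctrl embryos, embryo I stood apart for *Crb1* (32.4 CPM) and *Ccdc127* (33.5 CPM), embryo H for *Pak3* (489), *Prom1* (201), *Nup93* (96.8) and *Sf3a1* (74.6), embryo D for *Grik2* (2141) and embryo F for *Cdh24* (31.5). The value of *Ino80* in dKO-E embryo E lay above all ctrl embryos.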

How the results depend on the processing

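The main counts were 28 genes upregulated, 266 downregulated and 82 of these 294 different between dKO-E and cKO-E. They came to 117, 498 and 202 with edgeR's likelihood-ratio test, 79, 467 and 176 with DESeq2, 177, 603 and 231 at an FDR of 0.01, and 620, 1139 and 458 at 0.05. Total counts as scaling gave 80 and 118, and 1 fit over all 19 libraries 45 upregulated. With sex as a covariate 155 genes differed between the mutants. Litter as a covariate, where the genotype difference rests on the embryos of litter 1, gave 1 and 36. Sequencing batch 1 alone gave 4, 83 and 33, and batch 2 alone 2, 12 and 1, where the log2 difference of *Ino80* was 0.55 (adjusted p = 0.0102). Litter 1 alone gave 0 and 0, with 0.74 for *Ino80*. These subsets hold fewer embryos.

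Chosen after seeing the data, leaving out the shallow dKO-E libraries E and G gave 13, 165 and 44, leaving out litter 1 gave 13, 126 and 37, and leaving out ctrl libraries H and I gave 29 and 241. Without each embryo in turn the counts ranged from 15 (without ctrl A) to 40 (without ctrl H) upregulated, with 18 without dKO-E F, from 172 (without dKO-E F) to 265 downregulated, and from 54 (without dKO-E F) to 82 different between mutants, and *Ino80* stayed called. Labels give letters to embryos of both groups but do not say that a letter pairs them. The 5 letters with an embryo in each join embryos of the same sequencing batch, and A and B join embryos of litter 1. Deviations from the group means correlated by 0.175, -0.413, 0.042, 0.16 and -0.07 (A, B, C, D and F), not all above 0.1, so the block was left to an alternative. With the letter as a replicate block, 1 gene was upregulated, 36 were downregulated and 8 differed between mutants. The cause of these shifts was not tested. No litter holds dKO-E and cKO-E, so litter could not be a covariate of that test.

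Among 163 single genes, no called gene changed sign under any of these alternatives, and 47 lost their call without at least 1 embryo, *Ep300* and *Srgap3* among them. *Trp53* stayed below 0 with an adjusted p above 0.001 in each. The depth of the shallowest library, 885159 counts, limits genes under about 3 CPM.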
